A study of Mus musculus with 16 samples.

Results

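Brain macrophages of CD163KO mice were compared with those of WT mice, pooled over sex and injected α-synuclein. Of the 16 libraries of the series, 8 are macrophages and belong to this comparison, 4 from CD163KO and 4 from WT mice, and the other 8 are microglia of the same groups. CD163KO mice carried the allele CD163tm1.1(KOMP)Vlcg, named in the labels without the extent of the deletion, and WT mice were C57BL/6N littermates. All mice were 12 weeks old at surgery and received α-syn into the striatum of both hemispheres, either monomeric (MONO) or as pre-formed fibrils (PFF), so that no uninjected group entered the comparison. Brains were taken 2 months p.i. The 4 CD163KO groups were females given MONO, females given PFF, males given MONO and males given PFF, and each was set against the WT group of the same sex and treatment, which gave 4 pairs. Between 4 and 7 mice were injected per group. The study sequenced triplicates and used mice of 2 batches, but neither the labels nor the methods state whether a table holds 1 triplicate or pooled reads, nor its batch, so that p-values below measure the spread between these 8 libraries only. The library of CD163KO males given MONO was excluded by the study, and values are given with and without it where it matters.

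CD163 is a scavenger receptor of macrophages. It binds complexes of haptoglobin with the hemoglobin that is set free when red cells lyse and carries them into lysosomes. Outside the lysosome, heme oxygenase 1 then breaks the heme down, and ferritin and ferroportin store or export the iron. IL-10 and glucocorticoids raise its expression, the protease ADAM17 sheds its outer part after inflammatory stimulation, and the cytokine TWEAK is a further reported ligand. In the brain it is a marker of the macrophages at the borders, in perivascular spaces, meninges and choroid plexus, and is absent from most resting microglia.

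The cells were sorted as CD11b+ and CD45 high, 10000 to 30000 cells per sample at a stated purity above 90%. By the study's own description this gate takes border-associated and infiltrated macrophages together with neutrophils and NK cells. All 20 markers of border-associated macrophages and all 16 of neutrophils had counts in every one of the 8 libraries, so the labelled population was found, as a mixture. In RNA of a bulk sample, fewer cells of a type and less RNA per cell cannot be told apart. RSEM assigned between 12170686 and 21433841 estimated counts to a macrophage library. Levels are given as normalised CPM, that is counts scaled to a common library size with TMM factors over the 8 libraries, with both female libraries first (MONO, then PFF) and the male ones after them (MONO, then PFF), unless stated otherwise. A fitted log2 fold change is CD163KO over WT from edgeR with the pair as a block, followed by its SE.

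A library from each genotype stood apart from the other 6. WT males given PFF had 6757 genes with a count of at least 10 and CD163KO males given MONO had 8895, against 9797 to 11591 in the others. The 10 leading genes took 16.5% of the counts in WT males given PFF and 16.6% in CD163KO males given MONO, against 39.7% to 64.0% elsewhere. Pearson's correlation across genes between libraries was 0.859 to 0.912 among the 6 and 0.620 to 0.738 wherever either of the 2 took part. They lie in opposite genotypes of the male pairs. Of the genes tested, 52.9% were at least 1 apart (log2) between CD163KO and WT males given MONO and 67.3% between males given PFF, against 24.4% and 23.8% in the female pairs. In CD163KO males given MONO, the summed level of the border-associated markers was 20943 normalised CPM and in WT males given PFF 22602, while the other 6 libraries lay between 66214 and 429042. Apoe set most of this sum, with 69.9% and 70.9% in these 2 libraries and 87.3% to 97.4% in the others. Without it the sums were 6302 and 6567 against 7349 to 13707, and Mrc1 of the same list was highest in the same 2 libraries. The part of these libraries in each result was examined by leaving them out.

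**Figure D1:**
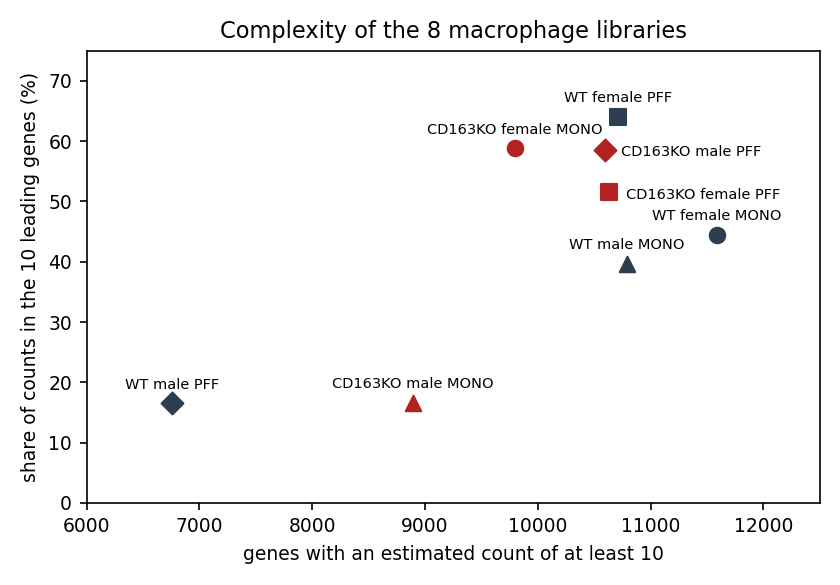
Each point is 1 of the 8 macrophage libraries, with the number of genes at a count of at least 10 on the x axis and the share of counts in its 10 leading genes, in percent, on the y axis; red points are CD163KO, dark points WT. WT males given PFF (6757 genes) and CD163KO males given MONO (8895 genes) lie apart, both near 16.5%, from the other 6 libraries at 39.7% to 64.0%.

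Cd163 itself, the deleted gene, was examined first. In GRCm38.p6 it lies on chromosome 6 from 124304636 to 124330529. WT macrophages held 987, 748, 1743 and 5275 estimated counts of it, while CD163KO macrophages held 0, 0, 0 and 1. In normalised CPM, this was 70.3, 73.5, 70.2 and 146 in WT and 0, 0, 0 and 0.0791 in CD163KO, so that the groups did not overlap and the labels of all 8 libraries held. Among WT libraries, the highest was 2.08 times the lowest. Against a limit of 3 counts in the CD163KO library, Cd163 was at least 191-fold lower in females given MONO, 266-fold in females given PFF and 1014-fold in males given MONO. In males given PFF, where CD163KO held 1 count, the ratio of WT to CD163KO was 1848, with an exact 95% counting interval of 331 to 72988. PCR copies cannot be told from molecules here, so such limits and intervals cover counting error only. Its fitted log2 fold change was -12.09 ± 0.91 (SE), with an adjusted p of 0.0143 (edgeR quasi-likelihood test, Benjamini-Hochberg); the value depends on the prior count since 3 of 4 CD163KO libraries are at 0. An exact two-sided permutation test of the 4 against 4 libraries gave p = 0.0286, the smallest this size allows, and sign flips over the 4 pairs gave p = 0.125, also the smallest possible. Without the male MONO pair, which holds the library the study excluded, the fitted change was -11.47 with an adjusted p of 0.12, and without the male PFF pair it was -13.35 with an adjusted p of 0.934, neither of which passed the threshold. Without the 2 libraries that stood apart, and with sex and treatment as additive terms, it was -10.92 with an adjusted p of 0.000426.

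**Figure D2:**
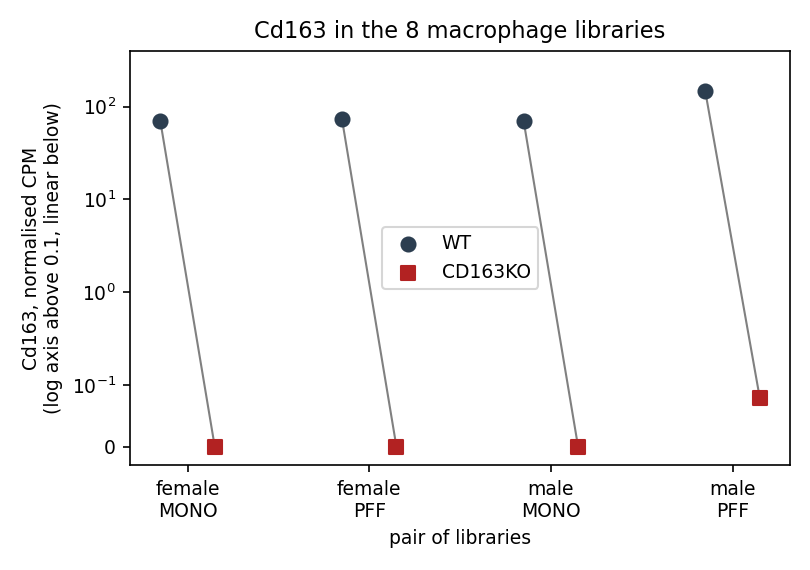
Normalised CPM of Cd163 on the y axis, logarithmic above 0.1 and linear below, for the 4 pairs of libraries on the x axis; dark circles are WT, red squares CD163KO, and lines join a pair. The 4 WT libraries lie between 70.2 and 146 and the 4 CD163KO libraries at 0 or 0.0791.

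Reads of Cd163 in WT macrophages were divided by RSEM between 2 RefSeq transcripts of 4492 and 4409 bases. The shorter transcript took 68.9%, 93.0%, 54.9% and 75.6% of the Cd163 counts in the 4 WT libraries, and was the larger share in each. The single count in CD163KO macrophages, from males given PFF, was assigned to the shorter transcript as well. Per length, Cd163 had an FPKM of 16.2, 7.95, 20.5 and 65.3 in WT macrophages. On the FPKM scale the WT libraries thus spread more than in normalised CPM, and males given PFF were highest on either.

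Beyond Cd163, no gene was called. Of 10549 genes tested, 1 (0.00948%) had an adjusted p of at most 0.05 in edgeR, and this was Cd163. At an unadjusted p below 0.05 there were 30 genes, 27 lower and 3 higher in CD163KO. DESeq2 with the same block called 5 genes, all lower, with 412 at an unadjusted p below 0.05, and limma voom with library quality weights called 13, with 2 higher and 11 lower and 592 at an unadjusted p below 0.05. DESeq2 added Slc38a3, Rwdd2b, Mgp and Tmem47 to Cd163. Voom added Ccl7, a monocyte chemokine, and Twf1, an actin-binding protein, as higher, and as lower both α-globins Hba-a1 and Hba-a2, Cldn5 of endothelial tight junctions, the pituitary hormone Gh, Ttr of the choroid plexus, the myelin protein Mbp, the smooth muscle myosin light chain Myl9, the glycine transporter Slc6a9, the early response gene Junb and Lgalsl. The genes called besides Cd163 did not overlap between DESeq2 and voom. Mgp was also called as lower by limma on log2(FPKM + 0.1), with an adjusted p of 0.0497. Ttr was also called as lower with library totals and with limma on either FPKM scale.

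The pairs did not share a pattern of differences. Lower in CD163KO in all 4 pairs were 413 genes (3.92% of those tested) and higher in all 4 pairs were 586 (5.56%). By at least 1 on the log2(CPM + 1) scale in every pair, 30 genes were lower and 13 higher. Across the genes tested, Pearson's correlation of the differences between any 2 pairs ranged from -0.107 to 0.0675, as a description of genes that share their libraries' depth. The median difference over all genes was -0.03, 0.00, -0.17 and 0.76 in the 4 pairs, so that most genes were higher in CD163KO males given PFF than in their WT counterpart, the library with the fewest genes.

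The data bound what could have been missed. The median SE of a fitted log2 fold change was 1.35 over all genes and 0.54 in the third with the highest mean level. A 95% interval lay within ±1 for 249 of 10549 genes and within ±2 for 2953. A log2 change of 1 in a typical gene was not detectable at this replication, whereas the loss of Cd163 was.

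**Figure D3:**
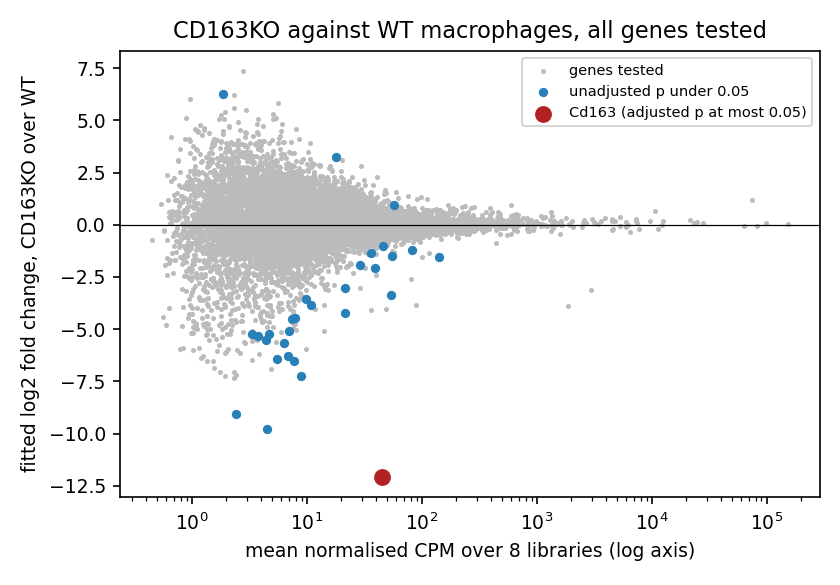
Fitted log2 fold change of CD163KO over WT (y axis) against the mean normalised CPM over the 8 libraries (x axis, logarithmic) for the 10549 genes tested in grey. Cd163 at -12.09 (red) is the only gene called; blue points are the 29 other genes with an unadjusted p below 0.05.

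The 23 genes that followed Cd163 by p in edgeR, none of which passed the threshold, had unadjusted p between 0.00543 and 0.0468 and an adjusted p of 1 each. Of these, 21 had a lower and 2 a higher fitted level in CD163KO, and 20 had 1 direction in all 4 pairs. Among these 23 and Cd163, the genotypes did not overlap for 8 lower genes and 1 higher gene, beside 77 lower (0.73%) and 108 higher genes (1.02%) of all tested; since small p chose them, nothing is read from this count. By known role, 17 of the 23 are described under metabolism and transport (Slc2a1, Slc38a3, Pfkm, Aspa), blood and vessel wall (Hba-a1, Mgp, Ltbp4), surface receptors and signaling of leukocytes (Siglecf, Slamf8, Pik3cd, Ptpra, Ifit3) and genes better known from neurons, glia or cilia (Adam23, Csmd3, Kif3c, Pcp4l1, Ttc21b), and Crip2, Ddx3y, Rwdd2b, Smurf1, Runx1t1 and Tmem47 stand outside these groups. The grouping was made after their values were seen, and no theme was tested.

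In the metabolic group, Slc2a1, which encodes the glucose transporter GLUT1, came first. Its level was 9.82, 28.1, 3.35 and 11.1 in CD163KO and 34.3, 82.2, 17.9 and 43.6 in WT. Each CD163KO library lay below its own pair, though the groups overlapped, and the differences within pairs were the most even among these genes, from -2.12 to -1.52 (fitted -1.94 ± 0.51). Slc38a3, a glutamine transporter, had 2.58, 0, 0 and 0.0791 in CD163KO and 20.0, 5.31, 2.34 and 40.9 in WT. The CD163KO library of females given MONO alone held it above 0.1, and the fitted value was -7.23 ± 1.96. Pfkm, the muscle form of phosphofructokinase, had 1.10, 0.184, 0 and 3.24 in CD163KO and 4.56, 5.41, 3.34 and 44.6 in WT, with all CD163KO libraries below all WT libraries and WT males given PFF far above the rest. Aspa, the aspartoacylase of oligodendrocytes, was 0 in 3 CD163KO libraries and in 1 WT library, and 24.5 in WT males given PFF.

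Hba-a1 encodes α-globin, the part of hemoglobin that reaches macrophages through red cells or their lysis. It had 80.1, 53.8, 24.6 and 62.5 in CD163KO and 521, 262, 41.8 and 83.6 in WT. Both WT female libraries exceeded every other library, and the differences within pairs were -2.69, -2.26, -0.74 and -0.41 (fitted -1.54 ± 0.50). Mgp, an inhibitor of calcification in vessel walls, had 0, 3.40, 0 and 0.237 in CD163KO and 13.5, 23.5, 3.95 and 9.70 in WT, and the groups did not overlap. Ltbp4, which binds latent TGF-β in the extracellular matrix, was at 0 in 2 CD163KO libraries and between 2.26 and 16.9 in WT.

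Among leukocyte genes, Siglecf, a sialic acid-binding lectin of eosinophils and some macrophages, had 0, 0, 0 and 3.32 in CD163KO and 0.996, 0.393, 12.0 and 27.2 in WT. The 3 CD163KO libraries at 0 lay below every WT library, and the fourth lay between the WT females and the WT males. Slamf8, a receptor of the SLAM family on macrophages, had 19.8, 34.5, 1.50 and 31.2 in CD163KO and 36.6, 46.9, 7.01 and 109 in WT, lower in each pair while the groups overlapped. Pik3cd, the leukocyte PI3-kinase subunit δ, had 25.8, 35.5, 17.5 and 48.0 in CD163KO and 58.4, 54.3, 48.0 and 81.5 in WT, with a fitted change of -1.003 ± 0.41, the smallest of the 23. Ifit3, an interferon-induced gene, had 70.1, 67.7, 25.4 and 42.3 in CD163KO and 81.2, 144, 111 and 115 in WT. All CD163KO libraries lay below all WT libraries for Ifit3, by as little as 0.21 on the log2 scale in females given MONO. Ptpra, a receptor-type tyrosine phosphatase, had 16.3, 14.3, 64.4 and 36.2 in CD163KO and 67.0, 100.2, 69.0 and 70.5 in WT and did not overlap either.

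Of the remaining genes, Crip2, a LIM domain protein of vessels, had 8.96, 42.9, 11.8 and 4.83 in CD163KO and 72.7, 111.6, 23.96 and 36.3 in WT. It was lower in CD163KO in each pair while the groups overlapped (fitted -2.08 ± 0.56). Pcp4l1 had 3.31, 19.4, 0 and 1.90 in CD163KO and 27.0, 48.3, 14.7 and 57.8 in WT, with the same direction in each pair. Rwdd2b had 0 counts in all 4 CD163KO libraries and 2.99, 1.28, 2.90 and 28.6 normalised CPM in WT, which is at least 37.6-fold lower with 3 counts per CD163KO library as the limit, and at least 10.05-fold without WT males given PFF. Runx1t1, a transcriptional corepressor, was likewise at 0 in every CD163KO library and at 2.49, 1.38, 1.93 and 13.7 in WT, at least 20.5-fold lower by the same limit and 8.14-fold without that library. Csmd3, a large membrane protein known from brain, had 0, 0.368, 0 and 0.633 in CD163KO and 2.35, 1.97, 1.13 and 43.8 in WT, and the groups did not overlap. Smurf1, a ubiquitin ligase of the BMP pathway, ran the other way with 10.2, 92.0, 20.6 and 3.48 in CD163KO and 6.48, 5.90, 3.50 and 0.0277 in WT (fitted 3.27 ± 1.16). Ttc21b, which encodes a subunit of ciliary transport, had 4.79, 2.21, 4.89 and 2.61 in CD163KO and 0.285, 0.0983, 0 and 0 in WT, and both female WT libraries were below 0.3 and both male WT libraries at 0. In WT males given PFF, 14 of the 24 genes had their highest level of all 8 libraries, among them Slc38a3, Csmd3, Kif3c, Pfkm, Runx1t1, Aspa and Tmem47, and that library also had the fewest genes.

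**Figure D4:**
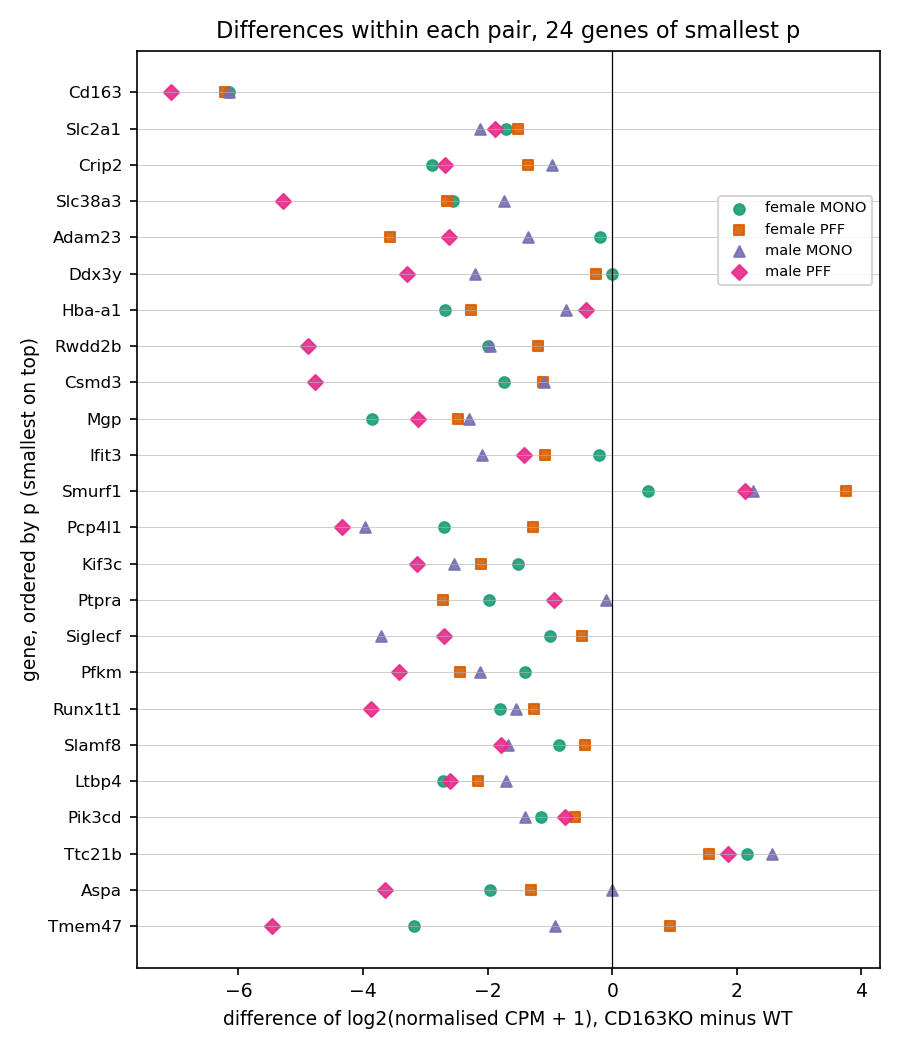
Difference of log2(normalised CPM + 1), CD163KO minus WT, on the x axis within each of the 4 pairs (symbols) for Cd163 and the 23 genes that followed it by p (y axis). Cd163 lies between -7.09 and -6.15 in all pairs; Smurf1 and Ttc21b are the 2 genes to the right of 0 in all 4 pairs.

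Hemoglobin uptake is the known task of CD163, and the genes that handle heme and iron after it were examined as a list of 31. Of the 28 tested, 0 were called, 10 had a lower and 18 a higher fitted level in CD163KO, and the median log2 fold change was 0.10 against 0.06 over all genes. No member was lower in all 4 pairs and 3 were higher. Without the male MONO pair the median was 0.18, and it turned to -0.05 without the male PFF pair and to -0.03 with library totals or FPKM. Besides the 4 members with the highest counts, several are named below for their role, with their values already known.

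Hmox1, heme oxygenase 1, had 71.2, 50.2, 61.3 and 74.0 in CD163KO and 58.3, 35.5, 29.6 and 48.9 in WT. It was higher in CD163KO in each pair while the groups overlapped, as were the iron importer gene Slc11a2 and the iron sensor gene Ireb2, and its fitted change was 0.61 ± 0.38 with an unadjusted p of 0.15 in edgeR. Biliverdin reductase B (Blvrb) had 118, 74.3, 39.1 and 113 in CD163KO and 110.5, 128, 91.1 and 55.2 in WT, higher in 2 pairs and lower in 2. Blvra, the other reductase, had 127, 102, 30.4 and 79.6 in CD163KO and 55.1, 93.7, 88.6 and 129 in WT and was split in the same proportion. Slc48a1 (HRG1), which moves heme out of the lysosome, had 28.8, 29.6, 16.9 and 63.9 in CD163KO and 49.8, 47.3, 6.36 and 24.4 in WT. It was lower in CD163KO in both female pairs and higher in both male pairs. The ferritin heavy chain gene Fth1 had 6830.0, 4164, 1661 and 7513 in CD163KO and 4205, 12522, 3809 and 1915 in WT, and the light chain gene Ftl1 had 45479.8, 24762, 4407 and 39304 in CD163KO and 24698, 64463, 15371 and 4502 in WT. Both were lowest in the 2 libraries that stood apart, 1 of each genotype, and their fitted changes were -0.06 ± 0.90 and 0.10 ± 1.62. Ferroportin (Slc40a1), the iron exporter, had 81.7, 124, 232 and 61.1 in CD163KO and 94.1, 87.0, 57.4 and 225 in WT, and was highest in the same 2 libraries.

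For iron import, the transferrin gene Trf had 2047, 4075, 1637 and 2784 in CD163KO and 2885, 5284, 1297 and 1418 in WT (fitted 0.11 ± 0.56), and the transferrin receptor Tfrc stayed at or below 8.28 in every library. Of the regulators, Nfe2l2 (NRF2), an activator of Hmox1, had a fitted change of -0.25 ± 0.41, and Bach1, a repressor of Hmox1, 0.43 ± 1.29. Spic, a factor of iron-recycling macrophages, was at 0 in the 2 libraries that stood apart and between 4.88 and 12.3 in the other 6. Lrp1, the receptor for heme bound to hemopexin and thus a route of heme uptake without CD163, had 58.2, 64.1, 190.4 and 50.6 in CD163KO and 89.7, 94.7, 56.7 and 23.6 in WT. It was lower in CD163KO females and higher in CD163KO males than in WT. Hemopexin itself (Hpx) and hepcidin (Hamp) had at most 13 counts in a library and were not tested.

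Of the list of ligands, sheddases and regulators of CD163, edgeR called 0, while voom with quality weights called Hba-a1 as lower (-2.34, adjusted p 0.000148). Of the 17 tested of 18, 10 had a lower and 7 a higher fitted level, with a median of -0.08, and 3 of them, the globins Hba-a1, Hbb-bs and Hbb-bt, were the members lower in all 4 pairs. Haptoglobin (Hp), which presents hemoglobin to CD163, had 312, 130.4, 372 and 420.2 in CD163KO and 364, 167, 271 and 377 in WT. It was lower in 2 pairs and higher in 2, with a fitted change of 0.01 ± 0.34 and a 95% interval of -0.79 to 0.81, narrower than for most genes. Tnfsf12, which encodes TWEAK, had 8.96, 10.8, 1.13 and 5.30 in CD163KO and 4.70, 11.9, 7.21 and 6.51 in WT, and its receptor gene Tnfrsf12a had at most 37 counts in a library and was not tested. Adam17 had 29.3, 31.4, 43.6 and 25.2 in CD163KO and 21.6, 18.8, 13.9 and 77.6 in WT, higher in CD163KO in 3 pairs and lower in males given PFF. Il10 was low in most libraries, with 1.60, 11.8, 12.97 and 3.09 in CD163KO and 2.49, 3.54, 0.926 and 0 in WT, while its receptor subunits Il10rb (fitted 0.00 ± 0.34) and Il10ra (-0.08 ± 0.56) centered near 0. The glucocorticoid receptor Nr3c1 had 49.0, 41.1, 64.5 and 39.2 in CD163KO and 31.7, 29.9, 44.1 and 39.7 in WT (fitted 0.40 ± 0.41). Tsc22d3 (GILZ), a target gene of glucocorticoids, had 365, 392, 231 and 409.5 in CD163KO and 313, 266, 67.1 and 226 in WT. It was the regulator that was higher in CD163KO in all 4 pairs, by 0.85 ± 0.39 in the fit with an unadjusted p of 0.0622 in edgeR. Spi1 (PU.1), a master factor of myeloid cells, had a fitted change of -0.25 ± 0.45.

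Markers of border-associated macrophages, the cells that carry CD163 in the brain, were present in CD163KO as in WT libraries. Of the 20 tested, 0 were called, 18 had a higher and 2 a lower fitted level in CD163KO, with a median of 0.25 against 0.06 over all genes. In the 4 pairs the median of their differences was 0.46, 0.44, -0.44 and 0.28. The median stayed above 0 in every alternative fit, from 0.10 to 0.46. Mrc1, the mannose receptor CD206, had 537, 798, 952 and 639 in CD163KO and 399.5, 560.2, 508 and 859 in WT (fitted 0.36 ± 0.40). Lyve1, a hyaluronan receptor of perivascular macrophages, had 84.4, 162, 119 and 60.3 in CD163KO and 59.3, 41.8, 44.4 and 115 in WT, higher in CD163KO in 3 pairs and lower in males given PFF (fitted 0.76 ± 0.55). Pf4, a platelet factor gene that these cells express, had 899, 755, 412 and 605 in CD163KO and 639.8, 541, 890.4 and 407 in WT. Folr2, a folate receptor, had 401, 379.9, 208 and 226 in CD163KO and 192, 281, 278 and 236 in WT, and Cbr2, a carbonyl reductase, 879.9, 843, 306 and 692 in CD163KO and 454, 789, 564 and 251 in WT. The lectin genes Cd209a and Mgl2 had fitted changes of 0.16 ± 0.60 and 0.03 ± 0.44, and Siglec1 (CD169) of -0.05 ± 0.49. Apoe, a lipid carrier, had the most counts of any gene in 7 of the 8 libraries, 169964, 180660.0, 14640.3 and 243217 in CD163KO and 122923, 417958, 57828 and 16035 in WT, and its fitted change of 0.05 ± 3.06 had the widest SE among these markers.

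Homeostatic microglia genes, counted to see what the gate let through, had a median fitted change of -0.20, with 10 of 14 lower. The median was -0.01 without the male MONO pair, which holds the excluded library, and -0.39 in females only. Tmem119 had 36.6, 81.0, 71.8 and 82.8 in CD163KO and 113, 168, 46.1 and 126 in WT and P2ry12 had 102, 124, 54.1 and 58.3 in CD163KO and 132, 86.1, 76.4 and 124 in WT. Both had a lower level in CD163KO in 3 of 4 pairs and overlapped between the genotypes. Csf1r, which macrophages share, had a fitted change of 0.19 ± 0.51. The summed level of the 14 genes was 4738, 5085, 3443 and 5587 in CD163KO and 4854, 7818, 3102 and 3133 in WT.

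Neutrophil, monocyte and lymphoid genes varied more between libraries than between genotypes. S100a8, a subunit of the calprotectin complex, had 36939, 7682, 7396 and 52978 in CD163KO and 26013, 10529.8, 21395 and 8014 in WT. Its partner gene S100a9 followed with 11304, 3588, 2940.5 and 15999 in CD163KO and 9725, 4878, 6766 and 2804 in WT. For both, CD163KO males given PFF were highest, and the fitted changes of 0.25 ± 1.33 and 0.20 ± 0.93 carried wide errors. Over the 16 neutrophil genes the median was 0.11 and turned to -0.35 without the male PFF pair. The 14 monocyte genes had a median of -0.06, with Ccr2, the receptor of blood monocytes, at 140.5, 222, 267 and 191 in CD163KO and 180.0, 295, 165 and 343 in WT. For NK, T and B cells, 17 of 20 genes had counts and 11 were tested, with 0 called. Of these 11, 5 had a lower and 6 a higher fitted level in CD163KO. Nkg7, a granule protein of NK and cytotoxic T cells, had 53.1, 35.6, 35.9 and 48.5 in CD163KO and 62.3, 36.1, 87.6 and 70.9 in WT, lower in CD163KO in each pair (fitted -0.52 ± 0.41, unadjusted p 0.242 in edgeR). The sum over the lymphoid list was 171, 134, 158 and 152 in CD163KO and 183, 157, 203 and 153 in WT, lower in CD163KO in all 4 pairs, whereas the median fitted change was 0.05, and -0.54 without the male PFF pair. Mast cell genes had a median of -0.62 over 6 tested, which turned to 0.14 without the male MONO pair and was -1.09 without the male PFF pair. Fcer1a, the high-affinity IgE receptor α chain, had 12.0, 4.78, 7.83 and 11.5 in CD163KO and 12.4, 5.80, 28.1 and 48.0 in WT. Of the 6 tested, 4 had a lower and 2 a higher fitted level. The mast cell list summed to 346, 122, 174 and 165 in CD163KO and 343, 120, 166 and 234 in WT. This sum was lower in CD163KO in 1 pair.

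Antigen presentation genes showed how far single libraries set a value. Cd74, the invariant chain, had 128476, 107180.0, 10426 and 127439 in CD163KO and 64378, 287735, 43643 and 12145 in WT. H2-Ab1 had 86067, 63729.8, 5807 and 74346 in CD163KO and 40003, 198864, 34181 and 7100.0 in WT and followed the same order of libraries. In both, the 2 libraries that stood apart were lowest, 1 of each genotype. The 11 class II genes had a median fitted change of -0.04 and the pairs disagreed, with medians of 0.56, -1.30, -1.22 and 1.99. Without the male PFF pair the median became -0.88 and without the female PFF pair 0.56. Class I genes had a median of -0.24 with 13 of 15 lower, which turned to 0.21 without the female PFF pair and was -0.60 without the male PFF pair. H2-K1 had 1426, 905, 573 and 2062 in CD163KO and 1839.7, 4434, 841 and 696 in WT. Reads of the related H2 genes may be split between copies, so single values are uncertain.

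Inflammatory and interferon genes likewise gave 0 calls in edgeR. Il1b had 521, 241, 176 and 309 in CD163KO and 272, 533, 264 and 356 in WT, and the fitted change was -0.26 ± 0.44 with an interval of -1.27 to 0.76. Ccl2, the ligand of CCR2, had 455, 576, 155 and 315 in CD163KO and 217, 369, 333 and 246 in WT (fitted 0.26 ± 0.45). Over 24 genes of this list, 13 were lower and 11 higher, with a median of -0.08, which turned to 0.34 without the male MONO pair. Of the 19 interferon response genes tested, 12 were lower, the median was -0.13, and 0.06 without the female PFF pair, and Ifit3 above was the member with an unadjusted p below 0.05. Ifitm3, a further member, had 2053, 1195, 293 and 2005 in CD163KO and 1514, 2319, 1398 and 369 in WT, lowest in the 2 libraries that stood apart.

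Other macrophage programs centered near 0 too. Genes of alternative activation had a median of 0.15 over 16 tested, and Clec7a (Dectin-1) had 72.7, 79.5, 81.8 and 81.4 in CD163KO and 97.4, 50.1, 99.4 and 147 in WT. Among 18 other scavenger and uptake receptors, the median was -0.08. Stab1, a scavenger receptor of border macrophages, had 652, 714, 455 and 589.6 in CD163KO and 601, 616, 438 and 526 in WT. It was higher in CD163KO in all 4 pairs by a small margin (fitted 0.14 ± 0.35, interval -0.68 to 0.95). Cd36, a receptor for oxidized lipids, had 122, 134, 81.6 and 52.2 in CD163KO and 58.2, 101, 142 and 375 in WT and no common direction. Complement genes had a median of 0.25 with 12 of 15 higher, which turned to -0.19 without the male PFF pair, -0.22 in females only and -0.14 with voom. C1qb had 14272, 16788, 1791 and 18429.6 in CD163KO and 10339.8, 30838, 5239.7 and 2013 in WT. Lipid handling had a median of 0.04, antioxidant response -0.15, lysosome and autophagy 0.00 and calcium homeostasis 0.21 over 29 genes. None kept its sign, since without the male PFF pair lipid handling was at -0.27, lysosome and autophagy at -0.26 and calcium homeostasis at -0.04, and without the male MONO pair the antioxidant list was at 0.14 and lipid handling at 0.23. In the antioxidant list, Gsr, glutathione reductase, had 273, 149.6, 137 and 467 in CD163KO and 191, 118, 115 and 135 in WT, higher in CD163KO in every pair (fitted 0.71 ± 0.39, unadjusted p 0.11 in edgeR). Early genes that respond to tissue dissociation had a median of 0.03, and -0.18 without the male MONO pair, with 8 of 19 lower in the fit. Dusp1 was higher in CD163KO in all 4 pairs, with 4234, 8120.1, 1108 and 3893 in CD163KO and 3474, 7367, 920.3 and 2508 in WT. Ier3 was lower in all 4 pairs, with 40.01, 26.5, 39.9 and 34.6 in CD163KO and 45.0, 64.0, 53.6 and 58.6 in WT, and was named after its values were seen. Junb, whose fitted change was -0.42 ± 1.01 in edgeR, was called as lower by voom. Cell cycle genes had a median of 0.37, which was -0.05 without the male PFF pair and 0.74 without the male MONO pair. Pcna had 24.7, 29.3, 40.4 and 21.8 in CD163KO and 14.7, 9.73, 22.1 and 20.7 in WT, higher in each pair, while Mcm5 had 2.51, 6.99, 33.4 and 20.1 in CD163KO and 9.47, 18.0, 30.8 and 44.8 in WT, lower in 3 of 4.

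**Figure D5:**
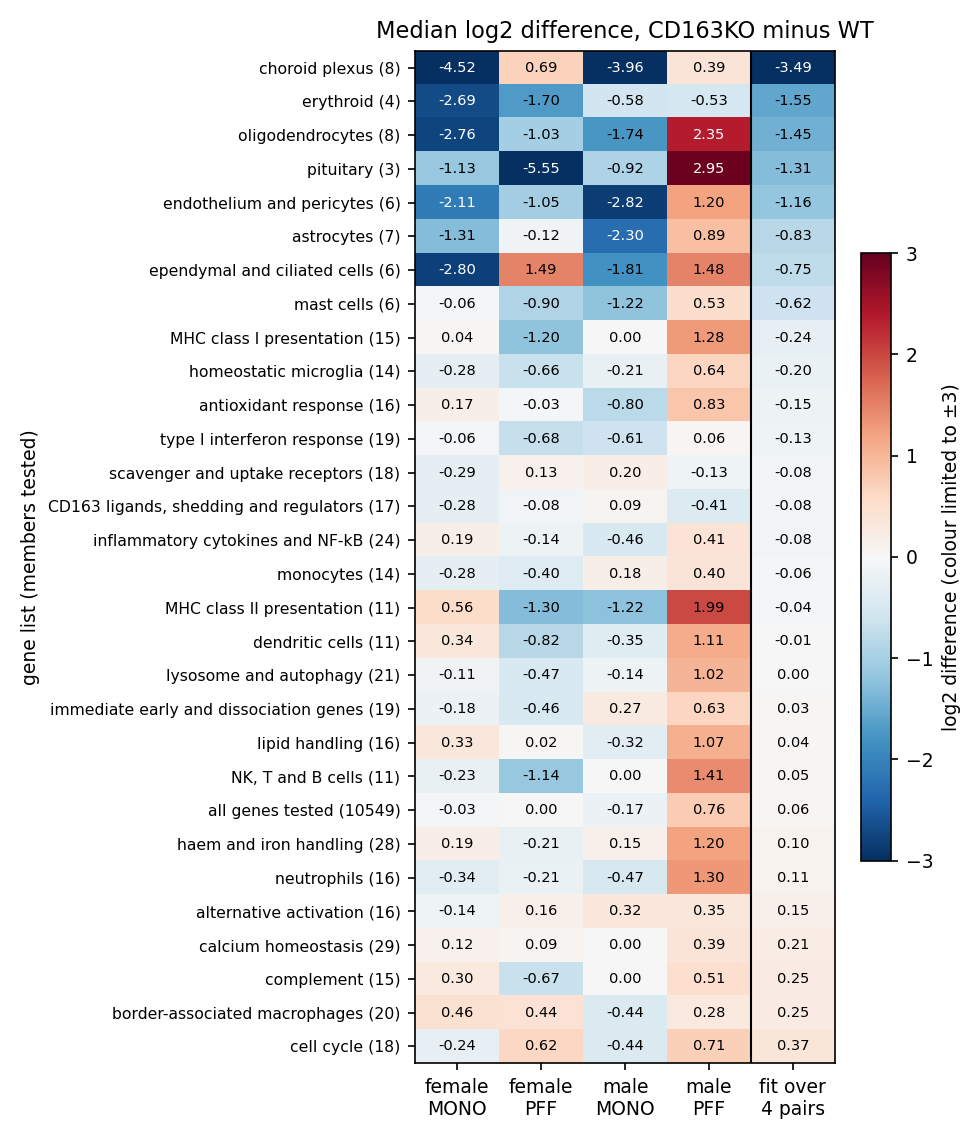
Rows are gene lists with the number of members tested and columns the 4 pairs and the fit over all 4; each cell gives the median log2 difference, CD163KO minus WT (pairs on log2(normalised CPM + 1), fit in edgeR), with color limited to ±3. The erythroid list is the 1 list below 0 in all 4 pairs with a median beyond -0.5 in each; most myeloid lists lie near 0 in the fit but differ between pairs.

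The gene lists furthest from 0 were those of cells outside the gate, and most of these had wide errors. The median SE of their members was 3.35 for choroid plexus, 2.39 for oligodendrocytes, 2.53 for endothelium and pericytes and 2.10 for astrocytes. For erythroid genes it was 0.67, and for border-associated and neutrophil genes 0.45 and 0.56. The medians of the lists with wide errors are therefore uncertain. Erythroid genes had a median of -1.55 over the 4 tested, all globins and all lower, 3 of them in all 4 pairs. The summed level of the 9 genes was 148, 123, 36.0 and 173 in CD163KO and 1078, 498, 77.9 and 162 in WT. The pairs of globin genes Hba-a1 and Hba-a2, and Hbb-bs and Hbb-bt, are near-identical copies between which reads may be divided arbitrarily, so their sum is the safer value. This sum was lower in CD163KO in 3 pairs and slightly higher in males given PFF. Hbb-bs had 23.6, 17.7, 4.89 and 25.6 in CD163KO and 143, 39.7, 6.86 and 40.6 in WT, lower in CD163KO in each pair (fitted -1.21 ± 0.53). In the fit without the 2 libraries that stood apart the median was -1.48, in females only -2.52, and with 1 pair left out it lay between -2.15 (without male PFF) and -1.03 (without female MONO). Voom with quality weights called Hba-a1 and Hba-a2, and edgeR, DESeq2 and limma on FPKM called no globin.

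Choroid plexus genes had a median of -3.49, with 8 of 8 tested lower in the fit, and 0 called by edgeR. Voom with quality weights called Ttr as lower (-2.88, adjusted p 0.0401). The pairs were split, with medians of -4.52 and -3.96 in the female and male MONO pairs and of 0.69 and 0.39 in the PFF pairs. Ttr, the thyroid hormone carrier that this epithelium makes in bulk, had 284, 4103, 32.2 and 189.6 in CD163KO and 11571, 4608, 2313 and 356 in WT. It was lower in CD163KO in each pair, by -0.17 in females given PFF and -5.34 in females given MONO on the log2 scale. Enpp2 (autotaxin) had 11.5, 4154, 32.1 and 18.9 in CD163KO and 7828, 2156, 565 and 222 in WT, higher in CD163KO females given PFF than in their pair and lower in the rest. Folr1, another gene of this epithelium, was at 0 or 0.123 in 3 libraries, CD163KO females given MONO, CD163KO males given MONO and WT males given PFF. The summed list gave 300.2, 8563, 64.7 and 226 in CD163KO and 19984, 6929.5, 3022 and 579 in WT. CD163KO females given PFF were above all other CD163KO libraries and above 3 of the 4 WT libraries. With the FPKM in place of counts, or with library totals in place of TMM factors, Ttr and Enpp2 were called as lower in CD163KO, whereas they were not in the main test (unadjusted p 0.0614 and 0.0543 in edgeR). The list median was -0.33 without the male MONO pair, -0.74 without the female MONO pair, -6.15 without the female PFF pair and -4.84 without the male PFF pair.

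Transcripts of other brain and pituitary cells varied in level with individual libraries. The medians of oligodendrocyte, astrocyte, and endothelial and pericyte genes stayed below 0 in every alternative fit, though their size moved. Voom with quality weights called Cldn5 (adjusted p 0.000409), Mbp (0.0271) and Gh (0.000409) as lower, and edgeR called none. Oligodendrocyte genes had a median of -1.45 with 8 of 8 tested lower in the fit. Leaving out 1 pair moved the median to -0.47 (female MONO), -0.77 (male MONO), -2.22 (female PFF) or -2.59 (male PFF). Their sum was 87.7, 148, 109 and 113 in CD163KO and 441, 471, 137 and 50.9 in WT. The endothelial and pericyte list had a median of -1.16, which was -0.62 without the female MONO pair and -2.46 without the male PFF pair, and a sum of 26.7, 78.0, 19.9 and 28.4 in CD163KO and 101, 442, 91.0 and 22.6 in WT. Cldn5, claudin-5 of the blood-brain barrier, had 7.49, 26.6, 0 and 8.94 in CD163KO and 39.1, 292, 35.3 and 18.0 in WT, lower in CD163KO in each pair (fitted -3.37 ± 1.44, unadjusted p 0.0488 in edgeR). Slc2a1 above, which brain endothelium expresses strongly, had the same direction. Astrocyte genes had a median of -0.83, which was -0.26 without the female MONO pair, -0.29 without the male MONO pair and -2.14 without the male PFF pair. Aldoc was at 84.2, 107, 13.2 and 86.2 in CD163KO and 143, 221, 68.6 and 45.9 in WT. Ependymal genes had a median of -0.75, turning to 1.22 without the male MONO pair, and neurons of 0.09 with 2 genes tested. Gh, growth hormone of the pituitary, had 1.47, 3.40, 6.16 and 101 in CD163KO and 4.41, 479.7, 1.09 and 0 in WT, so that WT females given PFF and CD163KO males given PFF stood out, 1 of each genotype. The part of these transcripts in the differences of other genes was not tested.

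Genes near Cd163 on chromosome 6 were examined because they could differ with a targeted locus. The 5 nearest tested genes on each side lie 66.3 to 1233 kb away. None was called, 3 had a lower and 7 a higher fitted level in CD163KO, and the median was 0.38. Toward lower coordinates lies a cluster of C-type lectins of myeloid cells, 1015 kb and more away. Clec4e (Mincle) had 52.3, 32.7, 83.3 and 37.4 in CD163KO and 41.4, 14.7, 21.3 and 85.8 in WT (fitted 0.59 ± 0.61), and Clec4d had 65.0, 21.4, 33.5 and 33.8 in CD163KO and 44.5, 11.7, 30.5 and 20.2 in WT, higher in CD163KO in all 4 pairs (fitted 0.57 ± 0.46). Clec4n (Dectin-2) and Clec4a2 had fitted changes of 0.18 ± 0.37 and 0.04 ± 0.40, with intervals of -0.68 to 1.05 and -0.90 to 0.98. Clec4b1 had 128, 102, 10.8 and 98.7 in CD163KO and 75.2, 83.6, 127 and 46.8 in WT. Toward higher coordinates, Pex5, the nearest, a receptor for peroxisomal import, had 6.38, 7.18, 30.7 and 6.49 in CD163KO and 6.76, 3.15, 11.4 and 137 in WT. C1ra had a fitted change of 3.78 ± 2.47 from low counts, C1rl of 0.99 ± 1.61 and Lpcat3 of 1.46 ± 1.70, while Emg1, whose locus overlaps the end of Lpcat3, had 52.4, 57.4, 26.7 and 62.8 in CD163KO and 57.8, 69.8, 86.1 and 60.6 in WT.

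Genes that mark sex or substrain were read as checks. Summed over Uty, Kdm5d, Eif2s3y and Ddx3y, all Y-linked, there were 0, 0, 1 and 2 counts in the female macrophage libraries and 350 to 6545 in the male ones. Ddx3y, a Y-linked RNA helicase, had 0, 0, 4.29 and 12.6 in CD163KO and 0, 0.197, 23.3 and 133 in WT and was among the 24 genes of smallest p, a comparison carried by the 2 male pairs alone. Eif2s3y did not follow it, with 19.2 and 11.4 in CD163KO males and 11.8 and 48.5 in WT males. Nnt, in which C57BL/6J mice carry a deletion and C57BL/6N mice do not, had 17.7, 15.8, 35.1 and 21.9 in CD163KO and 16.7, 12.1, 17.0 and 35.8 in WT, so it was detected in both genotypes. Of the genes that the study names for females given PFF, Nanp had 4.66, 0, 7.32 and 3.16 in CD163KO and 4.20, 1.57, 8.22 and 0 in WT, and Cldn10 and Fam171a1 were below the count filter, with at most 4.80 and 1.96. In females given PFF, all 3 were at 0 in CD163KO, while WT held 16 counts of Nanp, 24 of Cldn10 and 7 of Fam171a1.

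Whether the effect of genotype differed between the sexes was tested as a difference of effects, with 2 residual degrees of freedom. Of 10549 genes, 0 (0%) were called by edgeR, with 96 at an unadjusted p below 0.05, and DESeq2 called 8. The count depended on single pairs, with 3069 genes called without the male MONO pair, which holds the excluded library, 484 without the male PFF pair, 1 without the female MONO pair and 0 without the female PFF pair, each at 1 residual degree of freedom. The 5 genes of smallest p were Junb, Dok3, Hnrnpd, Tpsb2 and Rab6b, each with an adjusted p of 1. Junb, an AP-1 subunit, had 203, 282, 414 and 616 in CD163KO and 891, 2022, 129 and 211 in WT. It was lower in CD163KO than in WT in both female pairs and higher in both male pairs, a difference of effects of 4.10 ± 0.82 (SE, log2, males minus females). Dok3, an adaptor that restrains immune receptor signals, had 81.2, 78.0, 150.4 and 137 in CD163KO and 167, 168, 41.7 and 24.5 in WT and the same pattern. Hnrnpd, an RNA-binding protein, had 46.9, 37.9, 5.26 and 7.83 in CD163KO and 20.5, 9.54, 27.3 and 82.9 in WT, the reverse pattern. Tpsb2, a mast cell tryptase, had 21.7, 2.39, 0 and 0 in CD163KO and 44.6, 9.73, 15.5 and 17.9 in WT, and Rab6b, a GTPase of vesicle transport, had a difference of 4.58 ± 1.20. Each male pair contains a library that stood apart, so sex and those libraries cannot be told apart in this test.

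The same test for treatment, PFF against MONO, called 0 of 10549 genes (0%) in edgeR, with 41 at an unadjusted p below 0.05 and a smallest adjusted p of 0.448. DESeq2 called 30. Without the female MONO pair edgeR called 23 genes, without the male MONO pair 3 and without either PFF pair 0. The leading genes were Kcnj13, Sostdc1, Noct, Folr1 and P3h2. Kcnj13, a potassium channel of choroid plexus epithelium, had 0, 193, 0 and 8.70 in CD163KO and 358, 79.8, 69.3 and 0 in WT. Folr1 had 0.123, 48.6, 0 and 3.88 in CD163KO and 143, 51.3, 41.8 and 0 in WT, and Sostdc1, a secreted BMP and WNT antagonist, had 0, 99.1, 0 and 1.74 in CD163KO and 159, 72.0, 60.8 and 0 in WT. In the MONO pairs these 3 genes were near 0 in CD163KO and well above it in WT, and in the PFF pairs they were detected in CD163KO and in WT females. Noct, a protein named for its circadian expression, had 0, 27.7, 0.0231 and 42.2 in CD163KO and 10.7, 0, 25.1 and 0 in WT, and P3h2, a collagen prolyl hydroxylase, had a difference of 4.85 ± 1.29 (SE). The summed choroid plexus level given above moved in the same libraries, and its part in this test was not tested.

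Microglia of the same groups were the other population sorted, and the effect of genotype was compared between the populations in 1 fit over 16 libraries. Of 12419 genes, 0 (0%) differed by edgeR, with 141 at an unadjusted p below 0.05, and DESeq2 called 7. Cd163 had the smallest p, with a difference of effects of -11.46 ± 1.84 (SE, log2, macrophages minus microglia), but its adjusted p was 0.642. In microglia it had 23, 11, 10 and 5 estimated counts in libraries labelled CD163KO and 46, 101, 0 and 1 in WT, so the deleted gene did not separate the labels of male microglia. The microglia library labelled CD163KO females given MONO also held 799 Y-linked counts, against 0 to 2 in the other female microglia libraries. Without that library and its pair, 0 genes were called and 88 had an unadjusted p below 0.05. Among the genes that followed Cd163 by p were Klhdc8b, Csmd3 and Fpr1, a formyl peptide receptor of blood leukocytes. Csmd3, scaled over the 16 libraries, had 0, 0.536, 0 and 0.921 in CD163KO and 3.41, 2.85, 1.65 and 64.6 in WT in macrophages and 60.7, 67.1, 32.2 and 63.0 in CD163KO and 71.7, 60.7, 73.9 and 47.8 in WT in microglia, where both genotypes overlapped.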

How the data were processed

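RNA of sorted CD11b+/CD45 high brain cells was sequenced by SMART-seq2. Per the study's methods and the submitters' processing notes, reads were mapped with Bowtie2 to mm10 and quantified with RSEM. The expected counts were deposited by the authors without normalization, listing transcripts above 0 only, and unlisted transcripts were taken as 0. The FPKM values, scaled by the authors for transcript length and assigned reads, served as an alternative. The study describes batch correction and removal of outlier samples, which could not be traced to tables. A table may have been made before or after either step.

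Of 27787 RefSeq transcripts, 27627 had a symbol in the GRCm38.p6 table, and estimated counts were summed to 18576 genes and rounded. Transcripts without a symbol held at most 0.108% of the counts of a macrophage library and were left out. Each sample's group came from its genotype and treatment labels and the sex from the first letter of its title. Genes with a count of at least 10 in at least 4 of the 8 libraries were tested with edgeR 4.0.16 (quasi-likelihood, TMM factors, pair as block, 3 residual degrees of freedom) at a Benjamini-Hochberg adjusted p of at most 0.05. The SE is the fitted log2 fold change divided by the root of the quasi-F statistic, and intervals are 95%. Differences within a pair use log2(CPM + 1). DESeq2 1.42.0, limma 3.58.1 (voom with quality weights, and log2(FPKM + 1) or + 0.1), other scaling factors and filters, fits without the block, and leaving out each pair were alternatives. Procedures were tested on simulated counts with large changes in well-counted genes, an equal spread for all genes and no library that stood apart. Their behavior with such libraries or smaller changes was not tested. R 4.3.3, Python 3.11.15, pandas 2.3.3, numpy 2.4.6, scipy 1.17.1 and matplotlib 3.10.9 were used.

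The comparison and the 32 gene lists were chosen with earlier results of these data known. Named genes are those past the threshold (up to 12 in each direction), with the next by p up to 24 in all, up to 4 members of each list with the highest counts, the 5 nearest tested genes on each side of Cd163, the 5 of smallest p in each test of a difference of effects, and genes the study names. Genes named for their role are additions made after their values were seen. Some genes that this rule names are not reported here.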

Additional observations from a re-analysis of the deposited data

Results flagged for a closer look

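In each genotype of 4 libraries, the highest or lowest library was set against the rest. This was done on the log2 scale for the 24 genes of smallest p and the sum of each list. Measures of library size and complexity were checked too. Of 116 groups checked, 16 had 1 library far from the other 3. A rate of about 1 in 20 holds for independent normal values. Here the genes were chosen by p, lists share members, and 1 detected value beside 3 at 0 is always flagged. No excess over chance is read from this count. All values are normalised CPM. Cd163 was at 0.0791 in CD163KO males given PFF, which is 1 estimated count, with 0 in the other 3, and at 146 in WT males given PFF. WT males given PFF also stood apart for Csmd3, a large synaptic membrane protein, at 43.8 and for Pfkm, a glycolytic enzyme, at 44.6. Ptpra, a receptor phosphatase, was highest in WT females given PFF, where it was at 100. In CD163KO, low genes were detected mainly in 1 library, with Slc38a3 at 2.58 in females given MONO, Mgp at 3.4 and Tmem47 at 2.39 in females given PFF, and Siglecf at 3.32 and Aspa at 1.03 in males given PFF.

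The library of CD163KO males given MONO, which the study excluded, held the lowest sum in its genotype for border-associated macrophage genes (20943), MHC class II presentation (21737), complement (6531), lipid handling (16354) and astrocyte genes (17.9). Apoe is in both the border-associated and the lipid handling lists and makes up 69.9% of the border-associated sum here and 92.9% to 96.5% in the other CD163KO libraries. Without it that sum was 6302 against 8754 to 13707, and Mrc1 was highest in this library (952). Pituitary genes summed to 109 in CD163KO males given PFF. The cause of each was not tested.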

How the results depend on the processing

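The count of 1 called gene stayed at 1 with RLE factors, without a filter on counts, without the replicate block (additive terms or genotype only), in females only and without the 2 libraries that stood apart, the last 2 being fits chosen after seeing the data. It was 0 with upper quartile factors, where Cd163 was at -12.02 with an adjusted p of 0.0508, 0 with a count of at least 10 in all libraries, a filter that Cd163 cannot pass, 0 without the pair of the excluded library (Cd163 -11.47), 3 with library totals only and with log2(FPKM + 1), 4 with log2(FPKM + 0.1), 5 with DESeq2 and 13 with voom. Leaving out each pair in turn gave 0 to 1 genes and a fitted change of Cd163 between -13.35 and -11.47. The call was lost without either male pair, with an adjusted p (edgeR) of 0.12 without the MONO pair and 0.934 without the PFF pair, and held without either female pair. Fits that leave out a pair hold 2 residual degrees of freedom. The fitted change of Cd163 was below 0 in every fit that held it, whereas list medians changed sign, among them neutrophils, mast cells, MHC class I and II, complement, heme and iron, inflammatory and ependymal genes. Without the replicate block, Cd163 was at -12.11 with additive terms and at -12.06 with genotype alone, and each called Cd163 and nothing else. Pairs come from the sex and treatment labels, not from numbered replicates.

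For differences of effects, DESeq2 called 8 genes between the sexes, 30 between treatments and 7 between populations, where edgeR called 0. Leaving out each pair, added after seeing the data, gave 0 to 3069 genes between the sexes (3069 without the male MONO pair, 484 without the male PFF pair and 1 without the female MONO pair) and 0 to 23 between treatments (23 without the female MONO pair, 3 without the male MONO pair), at 1 residual degree of freedom. The cause was not tested. Between populations they remained at 0. The median over all genes was 0.06, and 0.27 without the male MONO pair and -0.12 without the male PFF pair. A median of 1 sign under every alternative was found for 7 of the 32 lists. These were erythroid, choroid plexus, border-associated macrophages, homeostatic microglia, oligodendrocytes, astrocytes, and endothelium and pericytes. The alternatives refit the same libraries, so this is no independent support. Among these lists, the erythroid one alone had a median of 1 sign in all 4 pairs.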
